A study of Mus musculus with 82 samples.

Results

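Mixl1, Gsc, Lhx1, Otx2 and Hhex are 5 homeobox genes of the anterior primitive streak and the tissues that leave it. Peaks of 4 ChIP-seq lists were taken where the peak midpoint lay within 100 kb of the span of 1 of these genes on the mouse build GRCm38 (mm10), and were split at 10, 50 and 100 kb. Of 132113 peaks in the 4 lists, 136 met this rule. They were 33 of 30129 EoGFP peaks, 18 of 27588 BraGFP peaks, 40 of 36203 EoVP16 peaks and 45 of 38193 EoV5 peaks. The 5 genes lie on 5 different chromosomes and were set beside all 21887 coding genes of the gene table. The outermost peak inside each window lay 82.2 to 97.3 kb from the gene, and the nearest peak outside it 109.9 to 117 kb away.

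The series held 82 mouse samples of RNA-seq, ATAC-seq and ChIP-seq. The peak lists described here come from 6 ChIP-seq libraries, and the other libraries were not used here. In all 4 groups the cells carried the genotype dKO, a knockout of both Eomes and Brachyury, and came from A2lox.Cre embryonic stem cells, a line in which a doxycycline-inducible construct can be inserted at a single site. They were grown as embryoid bodies, given activin A at 30 ng/ml together with doxycycline, and collected on day 5. The groups were dKO+EoGFP (GFP-tagged Eomes, 2 libraries, anti-GFP), dKO+BraGFP (GFP-tagged Brachyury, 2 libraries, anti-GFP), dKO+EoVP16 (an Eomes construct named for the VP16 activation domain, 1 library, anti-V5) and dKO+EoV5 (V5-tagged Eomes, 1 library, anti-V5). The tagged protein was thus the source of Eomes or Brachyury in cells that lacked both, at the level that doxycycline gave.

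Eomes and Brachyury are T-box transcription factors, which bind DNA through the T-box domain at sites near a short conserved half-site. Eomes is needed for definitive endoderm and the earliest mesoderm of the streak, and Brachyury for its posterior mesoderm and the notochord. Mixl1 is a paired-type homeobox gene of the streak needed for endoderm, and Gsc (goosecoid) marks the anterior streak and organizer. Lhx1 (Lim1) and Otx2 act in the anterior visceral endoderm and the anterior mesendoderm and are needed for head formation, and Hhex is expressed in the anterior visceral and anterior definitive endoderm.

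Each list was a single peak set, so the values below carry no spread between replicates and no test was made between lists. Pileup, the number of fragments over a peak's summit, was given for EoVP16 and EoV5 only, and was not scaled to depth, which is not known from these files. The file names give a minimum pileup of 120 for EoGFP, 40 for BraGFP, 36 for EoVP16 and 60 for EoV5, so a site with no peak in a list may hold signal below that list's minimum. Intervals are 95% intervals (exact Poisson for pileups, Wilson for shares) and cover counting error only.

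The promoter windows of 4 of the 5 genes are shown first because they differed in which lists covered them. RefSeq lists 1 start for Gsc, Lhx1 and Hhex and 4 starts for Otx2 on GRCm38.p6, and the 250 bases upstream of the start are printed 5′ to 3′ on the gene's own strand with each CpG in capitals. For Otx2 the outermost start is shown.
Lhx1, chr11:84525535-84525784, minus strand, covered in all 250 bases by a peak of each of the 4 lists: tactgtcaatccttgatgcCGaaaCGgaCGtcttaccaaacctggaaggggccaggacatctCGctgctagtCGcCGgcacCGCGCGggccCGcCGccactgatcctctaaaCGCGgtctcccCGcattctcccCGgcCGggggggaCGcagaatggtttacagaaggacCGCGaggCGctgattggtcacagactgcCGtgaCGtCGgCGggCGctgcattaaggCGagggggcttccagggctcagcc
Hhex, chr19:37434591-37434840, plus strand, covered in all 250 bases by a peak of each of the 4 lists: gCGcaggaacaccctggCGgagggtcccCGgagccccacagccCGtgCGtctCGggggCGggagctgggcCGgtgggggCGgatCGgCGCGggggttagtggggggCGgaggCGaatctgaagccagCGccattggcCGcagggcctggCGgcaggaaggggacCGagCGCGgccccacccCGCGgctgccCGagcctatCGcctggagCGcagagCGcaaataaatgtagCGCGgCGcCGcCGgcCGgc
Otx2, chr14:48667645-48667894, minus strand, covered in all 250 bases by an EoV5 peak and by no peak of the other 3 lists: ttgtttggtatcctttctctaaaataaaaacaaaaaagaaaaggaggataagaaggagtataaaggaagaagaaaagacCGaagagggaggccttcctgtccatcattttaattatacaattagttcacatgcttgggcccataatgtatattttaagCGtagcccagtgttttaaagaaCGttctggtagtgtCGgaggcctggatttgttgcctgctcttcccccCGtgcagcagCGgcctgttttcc
Gsc, chr12:104473237-104473486, minus strand, covered by no peak: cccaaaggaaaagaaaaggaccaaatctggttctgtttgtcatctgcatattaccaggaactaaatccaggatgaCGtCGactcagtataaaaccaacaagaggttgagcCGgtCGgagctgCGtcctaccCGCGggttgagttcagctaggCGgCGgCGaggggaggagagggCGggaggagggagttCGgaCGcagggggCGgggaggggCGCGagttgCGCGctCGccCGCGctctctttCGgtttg
These upstream stretches held 26 CpGs at Lhx1, 32 at Hhex, 6 at Otx2 and 22 at Gsc. In the full 300-base windows of the table, which add 50 bases past the start, the counts were 31, 37, 6 and 25, beside a median of 7 over all 32851 promoter windows. Windows touched by a peak had a median of 22 CpGs in every list, and windows touched by none had a median of 4 in EoGFP, 5 in BraGFP, 4 in EoVP16 and 5 in EoV5. Lhx1 and Hhex thus had CpG counts above the median of the windows touched, and the outermost Otx2 window was close to the median of all windows and was reached only by a very wide EoV5 peak. The windows of the other Otx2 starts held 11, 16 and 8 CpGs, counted from the innermost start outward. Coverage differed between the Otx2 starts. Of the 250 bases upstream of the innermost start, EoGFP covered 88, EoVP16 70 and EoV5 all 250, and BraGFP covered none. The stretches upstream of the outer starts were covered by EoV5 only. The Gsc window was CpG-rich and was touched by none.

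The T-box half-site AGGTGTGA, its shorter core GGTGTGA, which the longer form contains, and the Foxh1 site TGTGGATT were searched on both strands of the 7 promoter windows of these genes. None of the 7 windows held any of the 3. Over all 32851 windows, 1.28% held AGGTGTGA, 3.98% held GGTGTGA and 0.855% held TGTGGATT. The letters were thus rare in any window of this size, and the sequence under the distal peaks was not used here.

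Within 10 kb of the gene, 4 of 5 genes had an EoGFP peak, beside 65.2% of all coding genes, and 2 of 5 had a BraGFP peak, beside 53% of coding genes. All 5 had an EoVP16 peak within 10 kb (71.1% of coding genes) and 4 of 5 an EoV5 peak (62.2% of coding genes). Within 50 kb all 5 had an EoGFP peak (81.1% of coding genes) and 2 of 5 a BraGFP peak (76.5% of coding genes). All 5 had an EoVP16 peak within 50 kb (84.2% of coding genes) and all 5 an EoV5 peak (83% of coding genes). Within 100 kb all 5 genes had a peak in every list, beside 87.2% of coding genes for EoGFP, 85.3% for BraGFP, 89.6% for EoVP16 and 89.9% for EoV5. Each Eomes list thus had a peak near 4 or 5 of the 5 genes at every window, and most coding genes also had one (62.2% to 89.9%). The count furthest from its background share was BraGFP within 50 kb, at 2 of 5 genes. With only 5 genes, the gaps between these counts and the background shares were not tested.

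**Figure D1:**
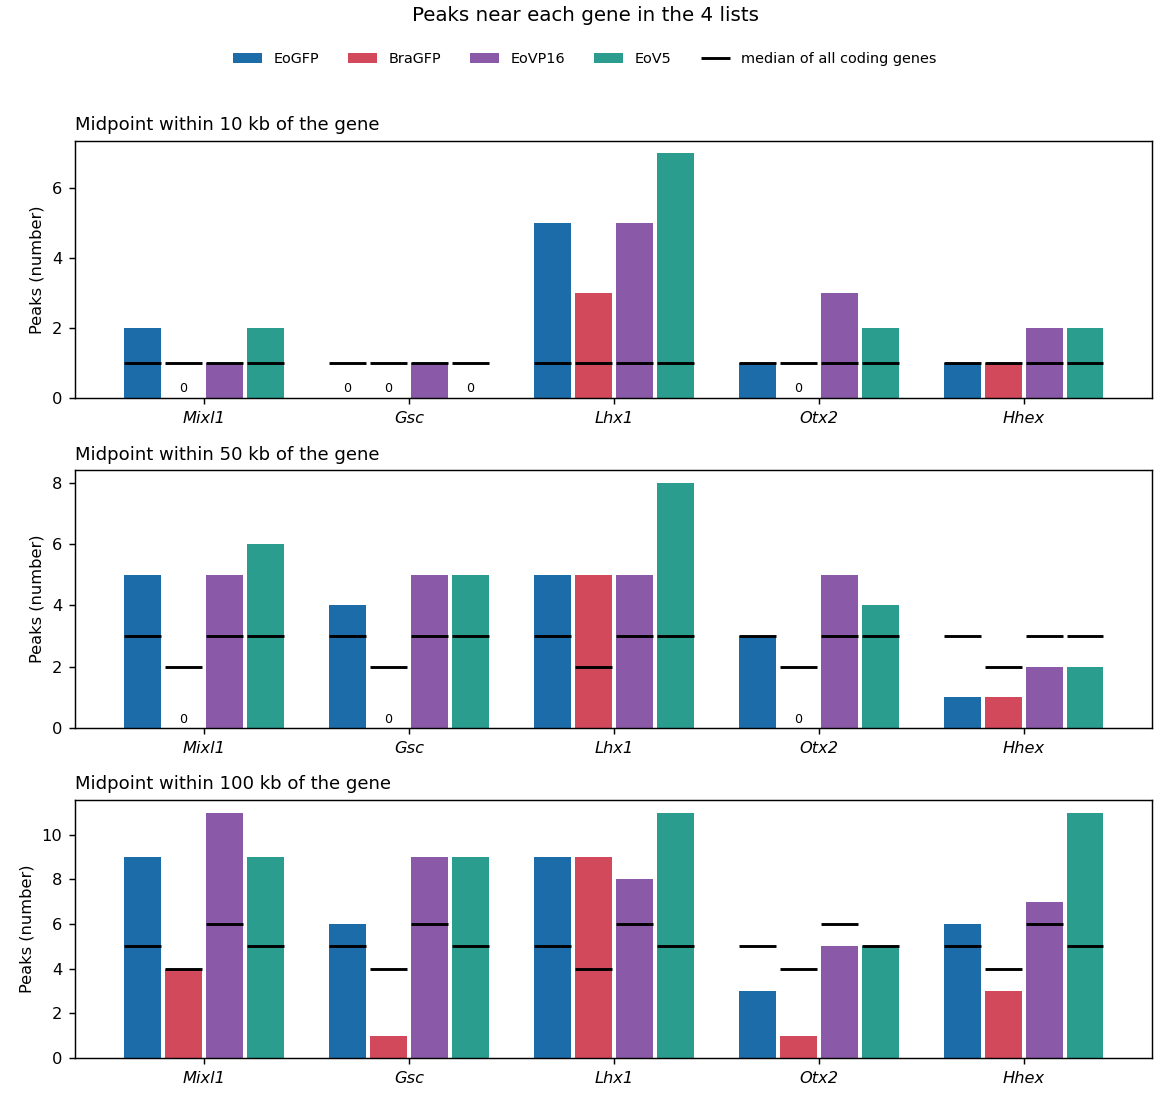
Number of peaks (vertical axis) with a midpoint within 10, 50 and 100 kb of each gene (panels from top to bottom) in the EoGFP, BraGFP, EoVP16 and EoV5 lists (colours). Black lines give the median over all 21887 coding genes. Mixl1, Gsc and Otx2 had 0 BraGFP peaks within 50 kb, and Lhx1 had the most peaks within 10 kb of these genes in each list.

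Mixl1, Gsc and Otx2 had EoGFP peaks within 50 kb and no BraGFP peak there. This combination held for 3 of the 5 genes and for 9.31% of all coding genes (2038 of 21887). Mixl1 had 5 EoGFP and 0 BraGFP peaks within 50 kb, Gsc 4 and 0, and Otx2 3 and 0. Lhx1 had 5 and 5, and Hhex 1 and 1. At 100 kb the EoGFP and BraGFP counts were 9 and 4 at Mixl1, 6 and 1 at Gsc, 9 and 9 at Lhx1, 3 and 1 at Otx2, and 6 and 3 at Hhex. The nearest BraGFP peaks were 69.6 kb from Mixl1, 55.2 kb from Gsc and 90.6 kb from Otx2.

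**Figure D2:**
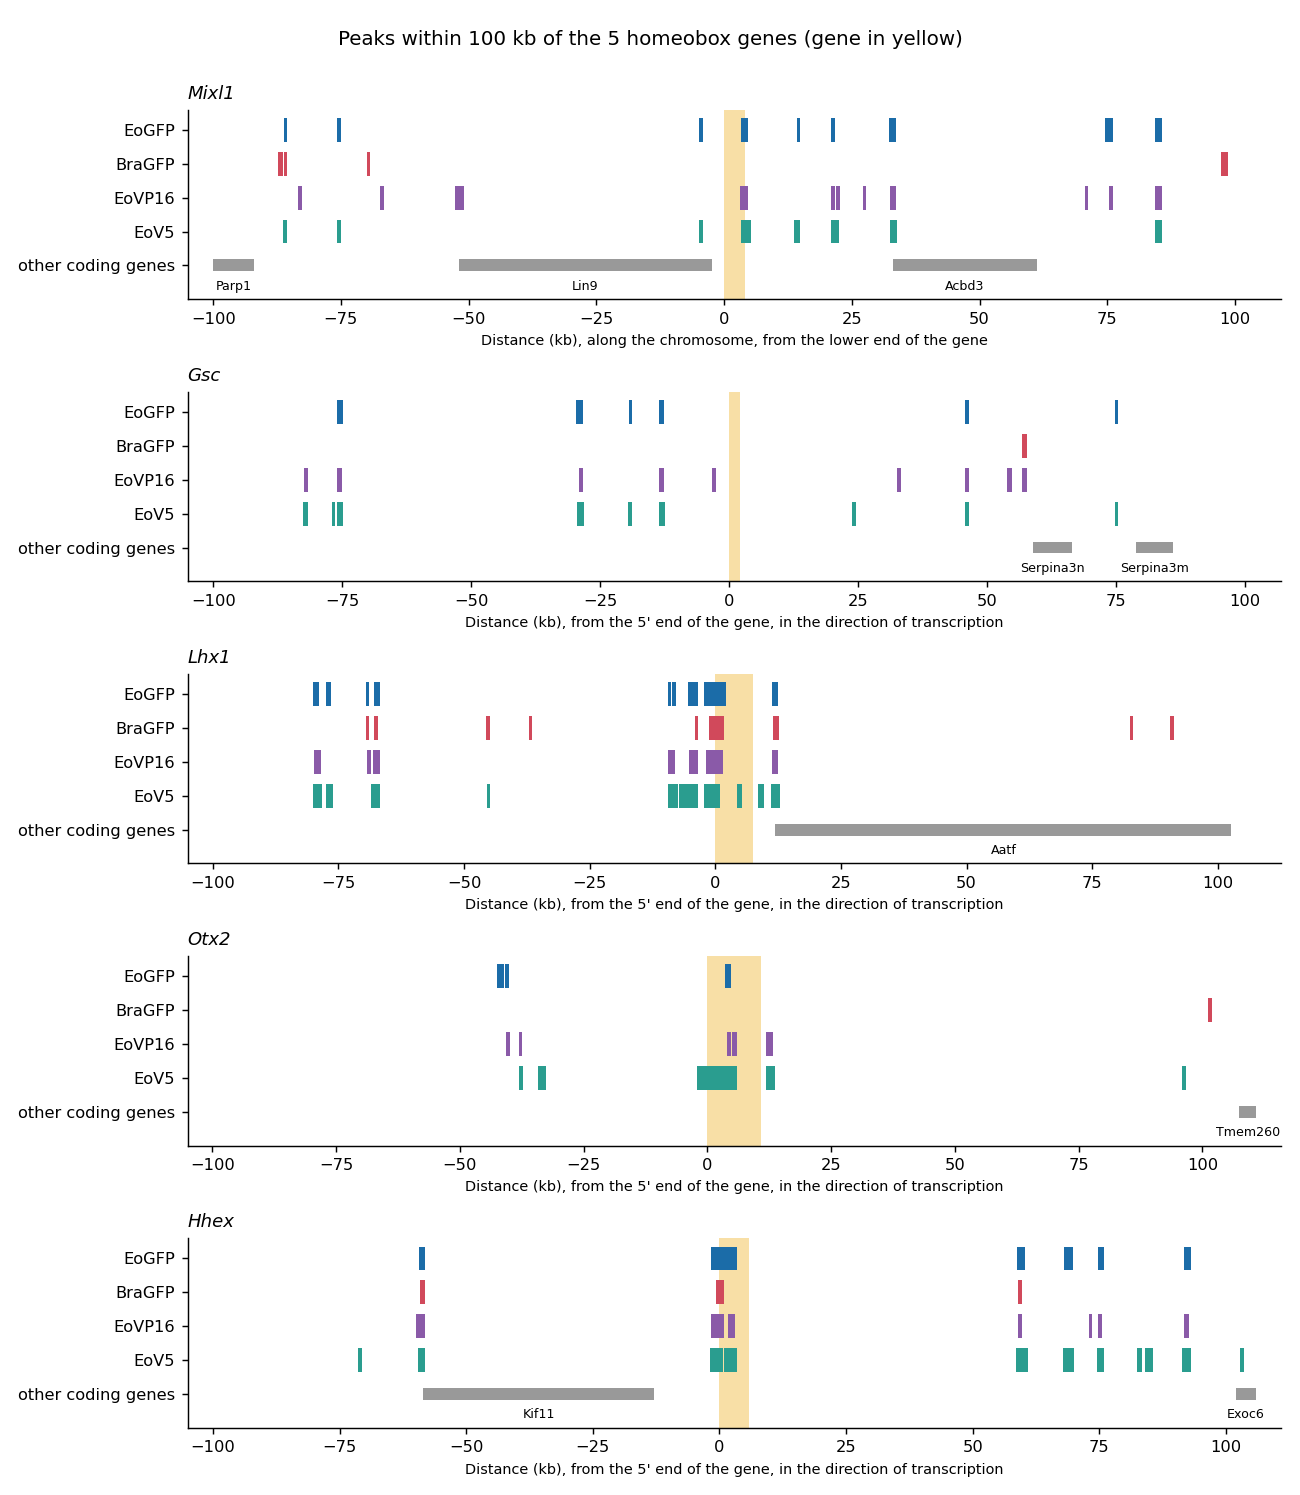
Peaks of the 4 lists (rows) along each gene's window, with the gene in yellow and other coding genes in grey. The horizontal axis is the distance in kb from the 5′ end in the direction of transcription, or along the chromosome for Mixl1, and peaks are drawn at least 0.7 kb wide. BraGFP peaks lie close to Lhx1 and Hhex, and lie 55.2 kb or more from Mixl1, Gsc and Otx2.

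Mixl1 (chr1:180693043-180697034, 3992 bp) lay in a gene-dense window, 2.36 kb from Lin9 and 29.0 kb from Acbd3. Its strand was not listed, so sides are given by coordinate. For every neighbouring gene, near and far ends are named by position and not by its direction of transcription. Within 100 kb it had 9 EoGFP, 4 BraGFP, 11 EoVP16 and 9 EoV5 peaks, joined by overlap into 18 sites. Only 2 of those sites had a midpoint nearer to Mixl1 than to another coding gene. The neighbours nearest to the others were Lin9, a subunit of a cell cycle transcription complex, Acbd3, a Golgi protein, Parp1, a DNA repair enzyme, and the histone gene H3f3a.

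The site at the upper end of Mixl1 was held by EoGFP, EoVP16 and EoV5. Its EoVP16 peak had 72 fragments (56.3 to 90.7) and its EoV5 peak 273 (242 to 307). A narrow site 4.52 kb below the gene, inside the span of Lin9, was held by EoGFP (600 bp) and EoV5 (592 bp). Its EoV5 pileup was 340 fragments (305 to 378), the tallest in the Mixl1 window and at percentile 93.5 of the EoV5 list, with no EoVP16 peak. The 2 tallest EoV5 peaks of the window thus lay on either side of the gene, and EoVP16 was listed at one of them.

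On the upper side, at 10.3 kb, EoV5 had a peak of 173 fragments, EoGFP also had a peak, and EoVP16 had none. At 17.3 kb EoVP16 had 101 fragments and EoV5 178, and at 18.3 and 18.1 kb they had 62 and 107. At 29.0 kb for EoVP16 and 29.1 kb for EoV5, at the near end of Acbd3, EoVP16 had 95 fragments (76.9 to 116) and EoV5 86 (68.8 to 106), the only shared peak of the 5 windows at which EoVP16 was the higher number. At 81.0 and 81.1 kb, at the near end of the long non-coding RNA gene 2900024J01Rik, they had 68 and 82. The remaining EoVP16 peaks of the window had 36 to 48 fragments and no EoV5 partner.

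Gsc (chr12:104471209-104473236, 2028 bp, minus strand) had 6 EoGFP, 1 BraGFP, 9 EoVP16 and 9 EoV5 peaks in 13 sites. Within 10 kb the only peak was an EoVP16 peak of 52 fragments, 2.97 kb upstream. The tall peaks lay further upstream, within the span of the long non-coding RNA gene Gm10000. At 13.1 kb for EoVP16 and 13.0 kb for EoV5 the pileups were 80 (63.4 to 99.6) and 258 fragments (227 to 291). At 19.2 kb the EoV5 peak had 347 (311 to 386) and no EoVP16 peak was listed. At 28.7 and 28.9 kb, EoVP16 had 72 (56.3 to 90.7) and EoV5 482 (440 to 527), which put that EoV5 peak at percentile 96.9 of its list. EoGFP held all 3 sites and BraGFP none of them.

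A further upstream group lay 75.5 to 82.2 kb from Gsc. EoVP16 had 36 fragments and EoV5 132 at its near end, EoV5 alone had a peak of 70 next to it, and EoVP16 had 62 and EoV5 104 at its far end. Downstream of Gsc, toward the serine protease inhibitor genes Serpina3n and Serpina3m, EoVP16 had 37 to 46 fragments and EoV5 71 to 93. The single BraGFP peak lay there, 55.2 kb from Gsc and nearer to Serpina3n, and it overlapped an EoVP16 peak of 42 fragments. Of the 13 sites, 8 had a peak nearer to Gsc than to any other coding gene. The next gene upstream, Dicer1, was 215 kb away.

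Lhx1 (chr11:84517975-84525534, 7560 bp, minus strand) had 9 EoGFP, 9 BraGFP, 8 EoVP16 and 11 EoV5 peaks in 14 sites, of which 4 were held by all 4 lists. Within 10 kb it had 5 EoGFP peaks, a count reached by 4.25% of coding genes, and 3 BraGFP peaks, reached by 12.7%. It also had 5 EoVP16 peaks (5.94% of coding genes had at least as many) and 7 EoV5 peaks (2.98%). Within 50 kb these shares were larger, at 25.3% for EoGFP, 14.7% for BraGFP, 35.0% for EoVP16 and 6.65% for EoV5. Over the 4 lists together, 3.64% of coding genes had at least as many peaks as Lhx1 within 10 kb. The same share was 47.5% for Mixl1, 78.5% for Gsc, 39.5% for Otx2 and 39.5% for Hhex. Lhx1 was the gene with the most peaks near its body and the one with as many BraGFP as EoGFP peaks at 100 kb.

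The promoter site of Lhx1 was very wide in every list. Its peak measured 4279 bp in EoGFP, rank 24 of the list by width, and 3050 bp in BraGFP, rank 38. It measured 3252 bp in EoVP16, rank 245, and 3103 bp in EoV5, rank 459. The EoVP16 pileup was 109 fragments (89.5 to 131) and the EoV5 pileup 446 (406 to 489). The summits lay 773 bases upstream of the start in EoVP16 and 609 bases upstream in EoV5, outside the printed stretch. The peaks also covered the start of Lhx1os, the long non-coding RNA gene on the other side of the promoter.

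Of the other 3 Lhx1 sites held by all 4 lists, 1 lay upstream near the gene, 1 far upstream and 1 downstream. At 4.35 kb upstream for EoVP16 and 4.48 kb for EoV5 the pileups were 109 and 261 fragments. At 67.4 and 67.6 kb upstream they were 132 (110 to 157) and 590 (543 to 640), the tallest peaks of the 5 genes in both lists, at percentile 95.4 of the EoVP16 list and 98.0 of the EoV5 list. At 4.31 and 4.37 kb downstream, at the near end of Aatf, a regulator of transcription and apoptosis, they were 111 and 141. EoVP16 and EoV5 also shared sites at 8.39 to 9.15 kb upstream, with 63 and 223 fragments, and at 79.1 and 79.2 kb upstream, with 61 and 306, and EoGFP held both. BraGFP alone held 2 sites inside Aatf, at 75.2 and 83.3 kb, and 1 site 36.8 kb upstream of Lhx1. EoV5 alone held low peaks of 76 fragments within the gene and 1.54 kb downstream of it, and 1 of 96 fragments 6.47 kb upstream.

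Otx2 (chr14:48656781-48667644, 10864 bp, minus strand) had the fewest peaks of the 5 genes, with 3 EoGFP, 1 BraGFP, 5 EoVP16 and 5 EoV5 peaks within 100 kb in 8 sites, none held by all 4 lists. Inside the gene EoGFP had 1 peak of 1264 bp. EoVP16 had 2 peaks in the same stretch, of 974 bp with 41 fragments (29.4 to 55.6) and of 823 bp with 51 (38.0 to 67.1). The EoV5 peak there, at chr14:48661741-48669811, was 8071 bp wide, the widest of all 38193 EoV5 peaks, and covered all 4 listed starts. It had 282 fragments (250 to 317), and its summit lay within the gene, 348 bases upstream of the innermost start. Within this stretch EoGFP and EoVP16 had only these peaks, and the outer 3 starts were covered by EoV5 only.

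Outside the gene, the tallest EoVP16 and EoV5 peaks were close to the list medians of 54 and 99 fragments. Upstream, at 37.7 and 37.6 kb, EoVP16 had 38 fragments and EoV5 112, and at 40.3 kb EoVP16 had 55 and EoV5 no peak. EoGFP held the 40.3 kb site and another at 41.8 kb that no other list held. At 1.67 and 1.87 kb downstream, EoVP16 had 36 fragments and EoV5 63. The BraGFP peak, 90.6 kb downstream, was 338 bp wide and nearer to Tmem260, the next coding gene.

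Hhex (chr19:37434841-37440731, 5891 bp, plus strand) had 6 EoGFP, 3 BraGFP, 7 EoVP16 and 11 EoV5 peaks in 11 sites, of which 3 were held by all 4 lists. Its EoGFP peak at chr19:37433136-37438327 was 5192 bp wide, rank 10 of the EoGFP list, and reached from the promoter into the gene. EoVP16 split this stretch into peaks of 2621 and 1449 bp with 50 (37.1 to 65.9) and 44 fragments (32.0 to 59.1). EoV5 split it into peaks of 2623 and 2658 bp with 75 (59.0 to 94.0) and 148 fragments (125 to 174). BraGFP covered the promoter with a peak of 1509 bp. The promoter was wide but low, with the EoV5 peak over it at percentile 26.0 of its list by pileup.

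The tall EoV5 peaks of the Hhex window lay between 53.8 and 86.2 kb downstream, in the stretch before Exoc6, a gene of the exocyst complex. At 69.3 and 69.4 kb, EoVP16 had 47 fragments (34.5 to 62.5) and EoV5 498 (455 to 544). At 86.3 and 86.2 kb they had 103 (84.1 to 125) and 571 (525 to 620), and this EoV5 peak was at percentile 97.8 of its list. At 53.5 and 53.8 kb, over the long non-coding RNA gene Gm32294, they had 46 and 237, and all 4 lists held the site. At 63.0 kb EoV5 had 234 with no EoVP16 peak. EoV5 alone held lower peaks of 119 and 85 fragments at 77.0 and 78.9 kb. At 97.3 kb, inside Exoc6, EoV5 alone held a peak of 144 fragments. The distal EoV5 peaks at 69.4 and 86.2 kb were thus higher than both EoV5 peaks at the promoter and in the gene, with intervals that did not overlap. All these downstream peaks were nearer to Exoc6 than to Hhex. The remaining site of all 4 lists, 58.7 to 59.0 kb upstream, lay at the far end of Kif11, a mitotic kinesin gene. It had 74 fragments in EoVP16 and 81 in EoV5.

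**Figure D3:**
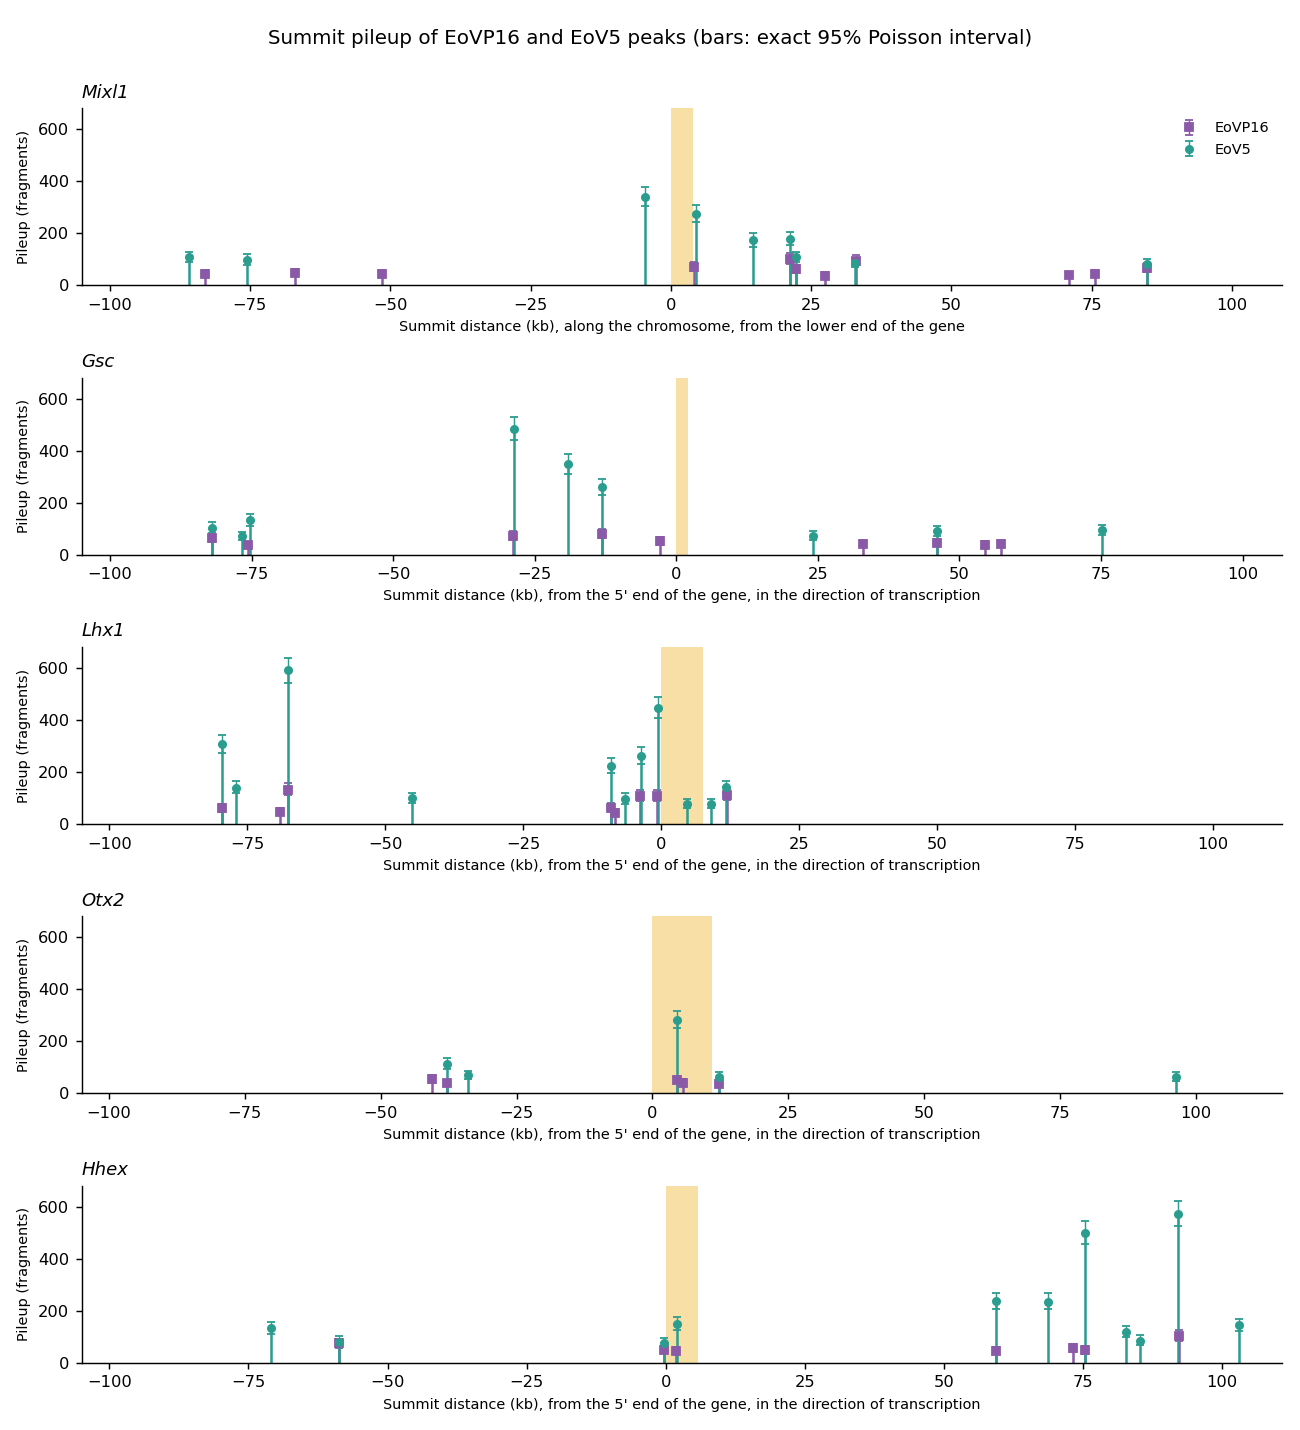
Summit pileup in fragments (vertical axis) of EoVP16 (squares) and EoV5 (circles) peaks by distance of the summit in kb (horizontal axis, as in the map of peaks), with exact 95% Poisson intervals and the gene in yellow. The tallest EoV5 peaks lay away from the gene body at Gsc (482), Lhx1 (590) and Hhex (571), and inside the gene at Otx2 (282).

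Joined by overlap of at least 1 bp, the 136 peaks formed 64 sites, and the 132113 peaks of the whole lists formed 71918. Of the 64 sites, 7 (10.9%) were held by all 4 lists, beside 8.30% of all sites. All 7 lay within 100 kb of Lhx1 (4) or Hhex (3), and some of them were nearer to Aatf, Kif11 or Exoc6. The 3 Eomes lists shared 20 sites (31.3%, 21.2 to 43.4), beside 22.8% of all sites, and 13 of those had no BraGFP peak. BraGFP held 17 of the 64 sites (26.6%, 17.3 to 38.5), beside 38.1% of all sites. BraGFP alone held 7 sites (10.9%, 5.40 to 20.9), beside 23.0% of all sites and 22.6% of the 63235 sites within 100 kb of a coding gene. Among the classes of sites, BraGFP alone was the one whose shares near these genes and in the genome lay furthest apart.

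**Figure D4:**
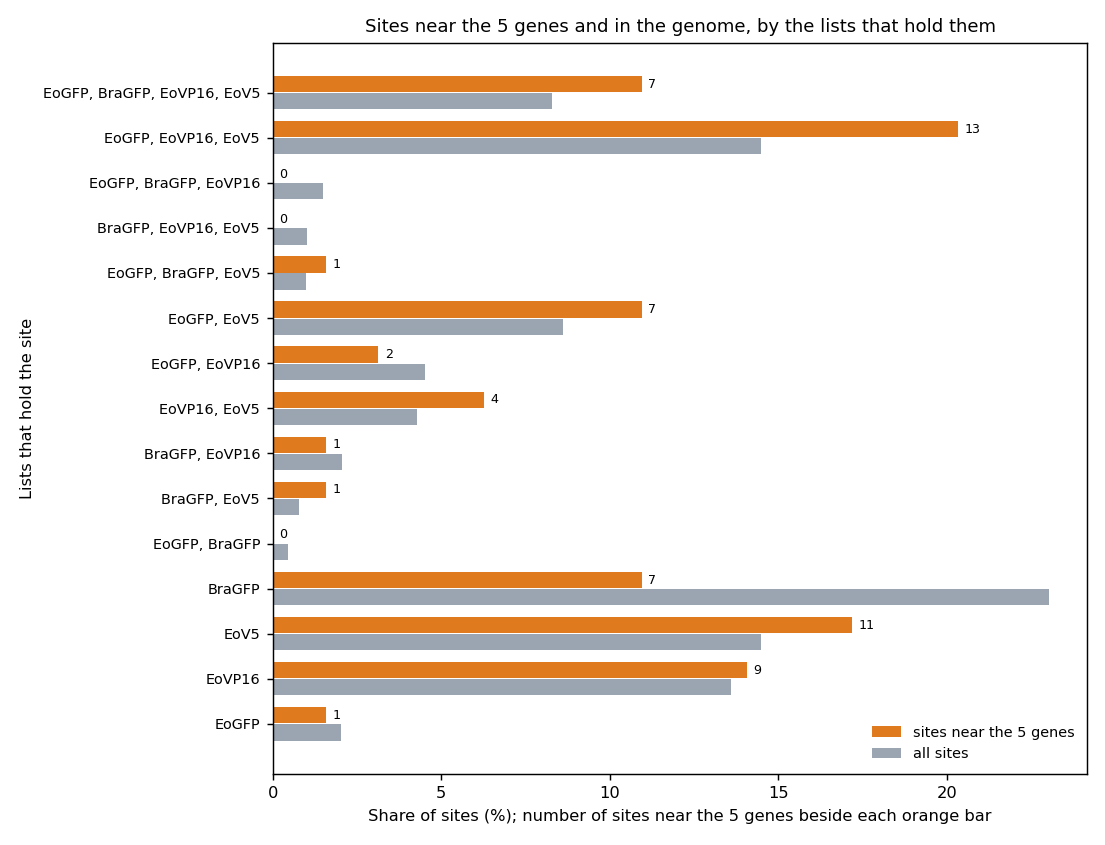
Share of sites in percent (horizontal axis) by the lists that hold them (vertical axis), for the 64 sites near the 5 genes (orange, with the number of sites) and the 71918 sites of the genome (grey). Sites of EoGFP, EoVP16 and EoV5 without BraGFP were the largest class near the genes (13 sites), and BraGFP alone the largest class in the genome (23.0%).

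Overlap between lists near these genes was set beside that of the whole lists. Of the 33 EoGFP peaks, 9 (27.3%, 15.1 to 44.2) overlapped a BraGFP peak, beside 27.1% of the whole EoGFP list, and 29 (87.9%, 72.7 to 95.2) overlapped an EoV5 peak, beside 79.6%. Of the 18 BraGFP peaks, 9 (50.0%, 29.0 to 71.0) overlapped an EoGFP peak, beside 29.3% of the BraGFP list. Of the 40 EoVP16 peaks, 28 (70.0%, 54.6 to 81.9) overlapped an EoV5 peak, beside 56.9%, and of the 45 EoV5 peaks 25 (55.6%, 41.2 to 69.1) overlapped an EoVP16 peak, beside 53.1%. In all 12 directed pairs of lists the interval near the 5 genes held the share of the whole list. Of the 9 EoGFP peaks that overlapped BraGFP, 5 lay in the 100 kb window of Lhx1, 3 in that of Hhex and 1 in that of Mixl1.

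EoVP16 and EoV5 heights were compared at the 25 EoV5 peaks that overlapped an EoVP16 peak, taking the taller partner where there were several. The ratio of EoVP16 to EoV5 pileup ran from 0.0944 to 1.10 with a median of 0.338, beside a median of 0.597 over all 20280 such pairs, and 20 of the 25 lay below that median. The lists are not scaled to each other, so the ratio has no absolute meaning and is read only against the other pairs. The median ratio was 0.579 at Mixl1 (5 pairs), 0.310 at Gsc (5), 0.263 at Lhx1 (6), 0.339 at Otx2 (3) and 0.266 at Hhex (6). The lowest was 0.0944 (0.0684 to 0.127) at the Hhex site 69.4 kb downstream, and 0.754% of all pairs were as low or lower. Summits of the 25 pairs lay a median of 33 bp apart, beside 27 bp over all pairs, and at most 2432 bp apart, beside 4440 bp. The gap of 2432 bp was at the EoV5 peak of 148 fragments inside Hhex. Its taller EoVP16 partner was the promoter peak of 50 fragments, which was also the partner of the EoV5 promoter peak.

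The ratio moved with EoV5 height, and the EoV5 peaks of these pairs were tall. EoV5 pileup is the divisor of the ratio, so a fall with EoV5 height is partly built into it. The median EoVP16 pileup of the pairs was 63 fragments near the genes and 66 over all pairs, and the median EoV5 pileup was 178 and 110. Over the whole lists the median ratio was 0.809 at EoV5 peaks of 60 to 100 fragments, 0.514 at 100 to 200, 0.270 at 200 to 400 and 0.193 above that. Against the median of their own height band, 13 of the 25 pairs lay below, a near-even split. Among the EoV5 peaks of 200 fragments or more, 12 of 15 near the genes had an EoVP16 peak, and the 3 without were those 4.52 kb from Mixl1, 19.2 kb from Gsc and 63.0 kb from Hhex. Over the whole EoV5 list 67.0% of peaks of 200 to 400 fragments and 86.8% of taller peaks had one.

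**Figure D5:**
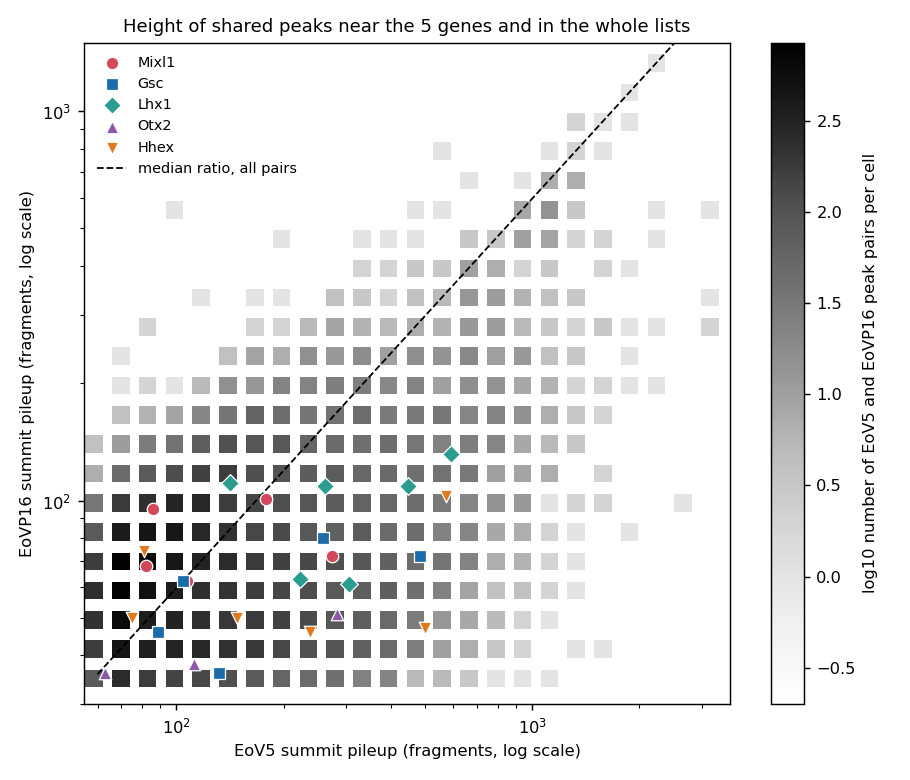
EoVP16 against EoV5 summit pileup in fragments (both axes on a log scale) at shared peaks near the 5 genes (coloured points, 25 pairs) over the 20280 pairs of the whole lists (grey cells, darker for more pairs). The dashed line is the median ratio of all pairs, 0.597, and 20 of the 25 points lie below it.

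The median width of the peaks near these genes was above that of the whole list in all 4 lists, by more in EoGFP and EoV5 than in BraGFP and EoVP16. It was 1250 bp in EoGFP against 871 bp in the whole list, and 21 of 33 peaks were wider than that. It was 715 bp against 587 bp in BraGFP, with 10 of 18 peaks wider. It was 874.5 bp against 793 bp in EoVP16, with 22 of 40 wider, and 1246 bp against 820 bp in EoV5, with 31 of 45 wider. Hhex had the widest EoGFP peaks, with all 6 above the list median, and 10 of 11 EoV5 peaks at both Lhx1 and Hhex were above theirs. At Mixl1 and Gsc the medians of all 3 Eomes lists were below those of the whole lists, at 674 bp in EoGFP, 640 bp in EoVP16 and 687 bp in EoV5 for Mixl1 and at 813, 744 and 727 bp for Gsc. The median EoVP16 pileup near the 5 genes was 50.5 fragments against 54 in the whole list, and the median EoV5 pileup 132 against 99.

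Few of the peaks lay at gene ends. Within 1 kb of an end of any coding gene were 6 of 33 EoGFP peaks (18.2%, beside 27.7% of the list), 4 of 18 BraGFP peaks (22.2%, beside 16.1%), 7 of 40 EoVP16 peaks (17.5%, beside 27.9%) and 6 of 45 EoV5 peaks (13.3%, beside 16.1%). At those ends EoVP16 had a median of 74 fragments near the 5 genes and 61 in the whole list, and elsewhere 47 and 51. EoV5 had 113.5 and 86 at ends, and 132 and 102 elsewhere. In both sets the EoVP16 median was thus higher at gene ends and the EoV5 median higher elsewhere. Near these genes the end medians rest on 7 EoVP16 and 6 EoV5 peaks, and the ranges overlapped. EoVP16 ran from 45 to 111 fragments at ends and from 36 to 132 elsewhere. EoV5 ran from 75 to 446 at ends and from 63 to 590 elsewhere, and the difference was not tested.

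Other streak and endoderm regulators and homeobox relatives were counted the same way. Within 50 kb, EoGFP peaks were listed near 24 of 24 streak and endoderm regulators and BraGFP peaks near 23, and the exception, with 1 EoGFP peak and 0 BraGFP peaks, was Evx1, a posterior streak homeobox gene. Their median was 5.5 EoGFP and 3 BraGFP peaks within 50 kb, beside 4 and 0 for the 5 genes and 3 and 2 for all coding genes. Over the 4 lists Cdh1, the E-cadherin gene, had the most peaks within 50 kb (47) and Evx1 the fewest (8). Within the same distance, EoGFP peaks were listed near 11 of 12 homeobox relatives and BraGFP peaks near 10, with medians of 2.5 and 1. Lhx5, the closest relative of Lhx1, had 5 EoGFP and 0 BraGFP peaks there, and Lhx9 had 1 and 0. Gsc2 had the most peaks of the relatives over the 4 lists (26) and Pitx1 the fewest (1).

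The coding genes most like each gene were found by the smallest sum of absolute differences over 12 counts (4 lists at 10, 50 and 100 kb), leaving out genes within 1 Mb. For Mixl1 they were Kcnk16 and Sephs2, each with a sum of 5, and for Otx2 Ap3m2 and Grb14, each with 4 in a tie of 5 genes. For Gsc they were Dapp1 and Nat8f5, each with 6, and for Lhx1 Nxpe4 and Plekha5, each with 8. For Hhex they were Utp14b with 5 and Acsl3 with 6, the latter in a tie of 2 genes. Utp14b and Acsl3 each had 5 EoGFP, 3 BraGFP, 7 EoVP16 and 11 EoV5 peaks within 100 kb. The counts of Lhx1 were thus the least closely matched of the 5.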

How the data were processed

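The deposited peak lists of 4 constructs were analysed: EoGFP and BraGFP (1 list each for 2 libraries), EoVP16 and EoV5 (1 library each). Per the submitters' processing notes, Bowtie2 2.3.4, MACS2 2.1.1.20160309.4 and build mm10/GRCm38 were used; settings, the control and the joining of libraries are not given in the sources used here. The deposited EoGFP and BraGFP lists hold positions only, and whether they count from 0 or 1 is not stated, so those positions may be off by 1 bp. The deposited signal of EoVP16 and EoV5 is the summit pileup in fragments; the authors' fold ratio over background and −log10 p and q were not used. Peaks on unplaced contigs (4 to 7 a list) and repeated entries (4 to 46) were left out.

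Distances were taken between a peak's midpoint and the nearest end of the gene (0 inside it) in the RefSeq GRCm38.p6 table, which gives no exons. Peaks overlapped when they shared at least 1 bp. Percentiles are ranks within a list. Bands of EoV5 height and the sites near any coding gene were added after seeing the data. The 5 genes, the comparison lists and the naming rule (these genes, nearer neighbours, the extremes of each comparison list within 50 kb, and the closest genes by 12 counts) were chosen with earlier results of these data known; Lhx5 and Lhx9 were named after their values were seen. Counting, joining and overlap were tested on simulated data. Python 3.11.15, pandas 2.3.3 and SciPy 1.17.1 were used.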

Additional observations from a re-analysis of the deposited data

How the results depend on the processing

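Of 33 alternative settings for the peak counts within 50 kb, the overlap shares and the sites of all 4 lists, 29 left the value within 1.5 times (counts) or within the 95% interval (shares). With the wider 50% of each list, the peaks within 50 kb numbered 10 in EoGFP (18 in the full list) and 12 in EoVP16 (22 in the full list). With the taller 50%, they numbered 11 in EoVP16 and 15 in EoV5 (25 in the full list). These 4 settings keep only 50% of the peaks by construction. BraGFP kept 4 of its 6 peaks within 50 kb under the wider 50%, 5 where no other coding gene was nearer, and 6 under the other settings. The cut of each list to as many of its widest peaks as the shortest list holds left BraGFP whole, as it is the shortest. That setting, counted among the 29, could not change the BraGFP value. Background shares over the 5048 coding genes of the 5 chromosomes were all higher than over all coding genes, by up to 5.88 percentage points. No paired analysis was possible because each construct has a single peak list and no test was made. Depth is unknown, so a missing peak shows only that none passed that list's minimum pileup.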
